A study of Mus musculus with 9 samples.

Results

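The late response of the mouse colon to dietary heme was measured on 5 of the 9 arrays of a diet time course. The comparison set the heme-diet pools of days 7 and 14 (2 arrays) against the control-diet pools of days 4, 7 and 14 (3 arrays), over all genes. Male C57BL/6J mice, 9 to 11 weeks old, ate a control diet with 40% of its energy as fat during a run-in of 1 week. They then stayed on that diet or had 0.2 µmol heme added to each g of it. Each of the 5 arrays held RNA scraped from the colon epithelium of 4 mice and pooled, with a RIN above 8.0. No pool of a given diet and day was repeated. The spread behind every p-value below is therefore the spread between pools of different days, and it holds no estimate of the spread between animals of 1 day. The remaining 4 arrays were the control pools of days 0 and 2 and the heme pools of days 2 and 4, and they enter only where named. The control pool of day 2 held RNA of 3 mice. The title of the series separates an immediate oxidative stress from a delayed cytotoxicity with hyperproliferation. Days 7 and 14 are the latest days of the series and are called late here.

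Heme is the iron-holding porphyrin of red meat. Most of it is not absorbed in the small intestine and reaches the colon, where it is a source of reactive oxygen and of peroxidised lipids. Colon epithelium renews itself from stem cells at the crypt base, and cells stop dividing as they move to the surface, where differentiated colonocytes absorb water, electrolytes and short-chain fatty acids. Fatty acids and their oxidation products activate the nuclear receptor PPAR alpha, which drives genes of fatty acid oxidation. Electrophiles and oxidants release the transcription factor Nrf2, which drives genes of glutathione synthesis, NADPH supply and carbonyl reduction.

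In the late heme pools 23 of 25 tested genes of fatty acid oxidation rose, as did 17 of 29 Nrf2 targets and 17 of 29 genes of mitosis. The lists and their members were chosen with earlier results of these data known, so counts by list are a description. Among the genes that fell were the transporters Slc13a1, Slc30a10 and Slc46a1 and the enteroendocrine gene Chga. Also lower were 2 of 10 genes listed as surface growth inhibitors, Bmp2 and Il15, and 4 of 17 genes of the circadian clock. Of 14953 genes tested, 384 passed an adjusted p of 0.05 in limma's moderated test: 212 were higher (1.42% of the genes tested) and 172 were lower (1.15%). A called gene is 1 of these 384 below. At these shares, a short list with no called gene is not thereby shown to be unchanged. At least a 2-fold difference was seen for 28 of the higher and 13 of the lower genes. Both heme pools lay beyond the range of the 3 control pools for all 384. Without any test, both heme pools lay above the control range for 2323 genes (15.5%) and below it for 3245 genes (21.7%). A gap of at least 0.5 on the log2 scale between the nearest heme pool and the nearest control pool was left by 86 higher genes (0.575%) and 53 lower genes (0.354%), and 126 of these 139 were called. Nearest the threshold, Max and Pdxk had an adjusted p of 0.0499, while Tsr1 at 0.0501 and Hottip at 0.0504 lay just outside it.

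The number of called genes depended on single pools. Without the heme pool of day 14 no gene was called by limma, with 2447 genes at an unadjusted p under 0.05, and without the heme pool of day 7 there were 2190 called genes. Without the control pool of day 4, 7 or 14 there were 5, 7 and 2. With the day as a block there were 178, of which 141 were among the 384. Over the genes tested, differences from the control mean spread by an SD of 0.182 in the heme pool of day 7 and 0.287 in that of day 14, and each control pool spread by 0.126 to 0.131 around the mean of the other two. The upper quartile of all probesets was 7.673 in the heme pool of day 14 and 7.745 to 7.794 on the other 8 arrays. Epithelial genes were high in all 5 pools, with 13.37 to 13.46 for Car1, the carbonic anhydrase of colonocytes, and 13.01 to 13.25 for Muc2, the goblet cell mucin (log2 level). The summed linear signal of 10 smooth muscle markers was 5100 in the heme pool of day 7, 1960 in that of day 14 and 3130 to 7830 in the control pools. None of the 10 was called.

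**Figure D1:**
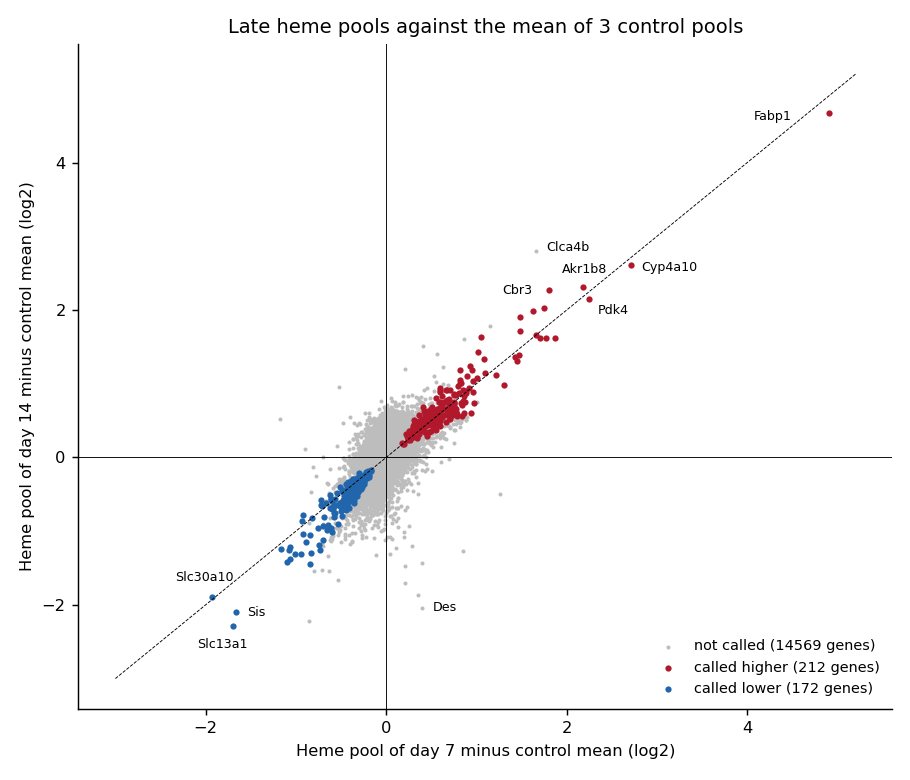
Difference of each gene from the mean of the 3 control pools in the heme pool of day 7 (x axis) and of day 14 (y axis), both in log2, with 1 point per gene tested. The 212 called higher genes (red) and the 172 called lower genes (blue) lie along the dashed line of equal differences, with Fabp1 at the upper end and Slc13a1 and Slc30a10 at the lower end; Des, a smooth muscle gene, is low only in the pool of day 14.

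Fatty acid oxidation held the gene with the largest increase, Fabp1, while its median was below that of mitosis. Of 25 tested PPAR alpha targets and beta-oxidation genes, 23 rose and none fell, and all 25 had a higher mean in the heme pools, with a median difference of 0.62 against -0.01 over all genes tested. Fabp1, the cytosolic fatty acid carrier of liver and small intestine, was at 9.65 and 9.41 (log2) in the heme pools of days 7 and 14. It was at 4.94, 4.78 and 4.50 in the control pools of days 4, 7 and 14, so that the groups were separated by 4.47 (27.7-fold higher, log2 difference 4.79 ± 0.15 (SE), adjusted p = 0.0016). The mean of its control pools, 4.74, lay at the level of 4.729 under which genes were left out as dim, so the fold is not exact. The pool orders of that sentence, days 7 and 14 for heme and days 4, 7 and 14 for control, are kept from here on.

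Cyp4a10, the omega-hydroxylase of fatty acids, stood at 6.88 and 6.78 against 3.99, 4.46 and 4.08. Its control pools lay below the level for dim genes and it was tested only because the heme pools were high, so no fold or p is given for it, though it is counted among the 23. Pdk4, the kinase that blocks pyruvate entry into the citric acid cycle, stood at 10.12 and 10.03 against 7.63, 8.28 and 7.74 (4.58-fold, adjusted p = 0.0137). Both genes were high in both heme pools, and their control pools varied by less than 0.7 on the log2 scale. Slc27a2, which imports and activates very long fatty acids, reached 8.64 and 8.49 against 6.57, 7.07 and 6.95 (3.25-fold, adjusted p = 0.014). Acot2, the thioesterase of mitochondria, reached 9.63 and 9.54 against 7.97, 7.93 and 7.86, the tightest set of these genes (3.16-fold, SE 0.05 on the log2 scale, adjusted p = 0.0016). Its cytosolic relative Acot1 rose 2.69-fold, and the liver and gut transcription factor Creb3l3 rose 3.16-fold. Array probes can be shared between the near-identical Acot1 and Acot2 sequences, which was not tested here.

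Several genes of mitochondrial beta-oxidation rose by less than the genes above. Cpt2, the inner carnitine transferase, rose by 0.62 (log2), the carnitine carrier Slc25a20 by 0.52, the long-chain dehydrogenase Acadl by 0.58 and the trifunctional protein subunits Hadha and Hadhb by 0.58 and 0.47. The members that were not called were the medium-chain dehydrogenase Acadm (0.04) and Cpt1a (0.25, adjusted p = 0.104), the outer carnitine transferase at which entry into mitochondria is controlled. Vnn1, a pantetheinase, rose by 1.38, Angptl4, a secreted inhibitor of lipoprotein lipase, by 1.15, and the lipid droplet coat gene Plin2 by 0.43. Of the 25 genes, 18 were called without the heme pool of day 7, none without that of day 14, and 4, 5 and 2 when the control pool of day 4, 7 or 14 was left out; with the day as a block 18 were called.

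In peroxisomes 9 of 18 tested genes rose and none fell (median difference 0.38). Acaa1b, the peroxisomal thiolase, was at 10.04 and 9.79 against 7.93, 8.22 and 8.37 (3.34-fold, adjusted p = 0.0129). Ehhadh, the bifunctional enzyme of the same pathway, was at 10.28 and 10.22 against 8.64, 9.00 and 8.91 (2.64-fold, adjusted p = 0.0121). These 2 genes stand on both lists. Acox2, an oxidase of branched chains, rose by 1.00 ± 0.11 (SE), the acyl-CoA importer Abcd3 by 0.66 ± 0.05 and the multifunctional enzyme Hsd17b4 by 0.59. Cat, the catalase that breaks down the hydrogen peroxide these oxidases make, was at 10.90 and 10.92 against 9.95, 10.10 and 9.97 (log2 difference 0.90 ± 0.05, adjusted p = 0.00766).

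**Figure D2:**
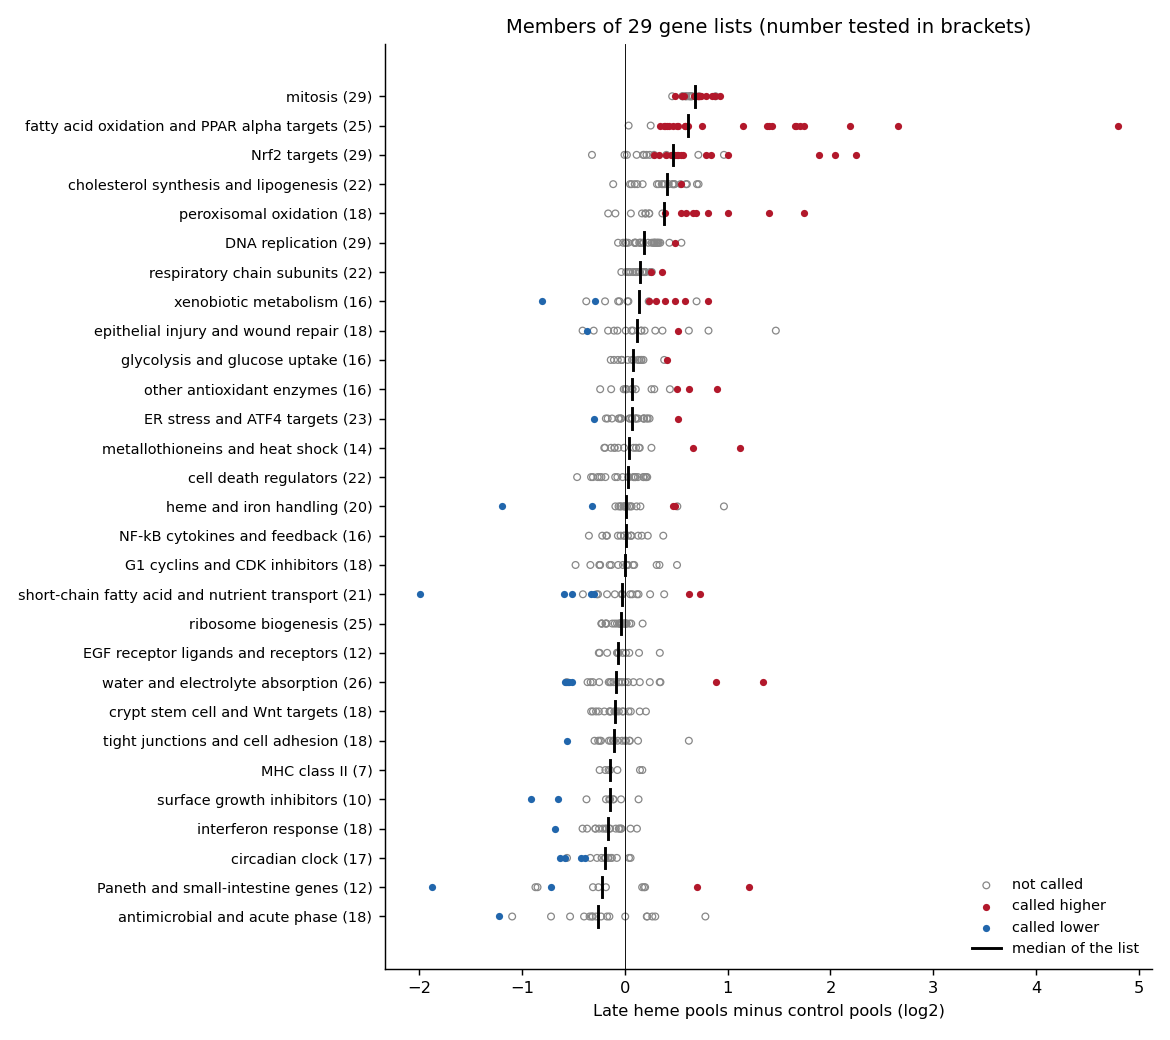
Difference between the late heme pools and the control pools (x axis, log2) for each tested member of 29 gene lists (rows), with called genes filled and the median of each list as a bar. Mitosis, fatty acid oxidation and Nrf2 targets have the highest medians at 0.69, 0.62 and 0.47; mitosis members lie within 0.46 to 0.93, while fatty acid oxidation reaches 4.79.

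Nrf2 targets rose as a wide group, led by reductases of carbonyls. Of 29 tested, 17 rose and none fell (median difference 0.47). Both heme pools lay above the control range for 24, against 15.5% of all genes tested. Akr1b8, an aldo-keto reductase, was at 10.82 and 10.94 against 8.44, 8.70 and 8.77 (4.74-fold, adjusted p = 0.00766). Cbr3, a carbonyl reductase, was at 9.42 and 9.88 against 7.38, 7.67 and 7.78 (4.11-fold, adjusted p = 0.013). Me1, the malic enzyme that makes NADPH, was at 9.90 and 10.18 against 8.02, 8.17 and 8.28 (3.69-fold, adjusted p = 0.00766). All 3 were separated from the control range by more than 1.6 on the log2 scale.

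Glutathione synthesis rose at both subunits of its limiting enzyme, Gclc by 0.79 and Gclm by 0.51, and its recycling enzyme Gsr rose by 0.40. The transferase Gsta3 was at 7.56 and 7.93 against 6.62, 6.77 and 6.83 (log2 difference 1.00 ± 0.13, adjusted p = 0.0322). Nqo1, the quinone reductase often used as an Nrf2 marker, was at 9.14 and 9.21 against 8.28, 8.39 and 8.34 (1.79-fold, adjusted p = 0.00766). Genes of the pentose phosphate pathway also rose, with 0.47 for Pgd, 0.52 for Tkt and 0.33 for Taldo1. The thioredoxin and peroxiredoxin reductases Txnrd1 and Srxn1 rose by 0.28 and 0.55. Outside that list, the microsomal transferases Mgst1 and Mgst2 rose by 0.63 and 0.51. Of the 29 Nrf2 targets, 19 were called without the heme pool of day 7, 1 without the control pool of day 4 and none without any of the other 3 pools; with the day as a block 10 were called.

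Binding of Nrf2 is known to need an antioxidant response element, so the promoters of 4 risen genes of the Nrf2 list and of Mgst1, which is not on that list, are shown with its core in capitals. Sequences are RefSeq windows of 250 bases before to 50 bases after a gene start (build GRCm38.p6), 5′ to 3′ on the strand of the gene. The core was searched as TGACNNNGC on both strands. For Gsta3 the 250 bases before the start are chr1:21240335-21240584 on the + strand, and the capitals begin 121 bases before the start.
Gsta3: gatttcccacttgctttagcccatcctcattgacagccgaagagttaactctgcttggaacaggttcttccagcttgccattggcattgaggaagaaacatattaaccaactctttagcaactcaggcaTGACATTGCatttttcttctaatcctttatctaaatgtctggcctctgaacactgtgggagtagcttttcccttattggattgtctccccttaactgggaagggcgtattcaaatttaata
For 4 more genes the core is shown with 10 bases on each side. It begins 134 bases before the start in Gclm (chr3:122245413-122245441, + strand), 92 in Txnrd1 (chr10:82859104-82859132, + strand), 56 in Mgst1 (chr6:138140461-138140489, + strand) and 6 in Me1 (chr9:86695902-86695930, - strand).
Gclm: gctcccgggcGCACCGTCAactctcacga
Txnrd1: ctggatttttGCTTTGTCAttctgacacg
Mgst1: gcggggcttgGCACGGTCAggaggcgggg
Me1: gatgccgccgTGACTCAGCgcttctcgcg
In Gclm, Txnrd1 and Mgst1 the capitals read the core on the opposite strand. In Me1 the same letters hold the AP-1 motif TGACTCA. The core was present in 9 of 23 Nrf2 targets with a window (39.1%), in 16.2% of the 11806 tested genes with a window and in 15.4% of the called higher genes. It was also in 5 of 15 circadian clock genes with a window (33.3%), a list in which no gene was called higher. In the mitosis and fatty acid oxidation lists it was in 16% and 9.52%. A match describes the letters and was not tested as a binding site.

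Heme and iron genes moved in both directions, with 2 of 20 tested genes called higher, 2 called lower and a median difference of 0.01. Of all genes tested 1.42% were called higher and 1.15% lower. Hmox1, the heme-degrading oxygenase, was at 6.19 and 7.29 against 5.77, 5.68 and 5.89. Both heme pools lay above the control range, the pool of day 14 by far more, and the gene was not called (log2 difference 0.96 ± 0.32, adjusted p = 0.18). Slc46a1, the proton-coupled folate transporter that has also been described as a heme carrier, was at 7.12 and 7.04 against 8.20, 8.43 and 8.20 (2.3-fold lower, adjusted p = 0.00851). Ftl1, the ferritin light chain and also on the Nrf2 list, rose by 0.47 and Abcg2, an efflux pump that carries porphyrins, by 0.49, whereas Slc11a2, the apical iron importer, fell by 0.32. The metallothioneins, which bind zinc and copper, were the only called genes among 14 of metal binding and heat shock: Mt2 stood at 11.42 and 11.46 against 10.24, 10.13 and 10.59 (adjusted p = 0.0262), and Mt1 rose by 0.66.

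Mitosis genes were higher in both late heme pools without exception among those measured. Of 29 tested, 17 rose and none fell, and the differences ran from 0.46 to 0.93 (median 0.69). Both heme pools lay above the control range for all 29, against 15.5% of all genes tested. Plk1, the kinase of mitotic entry and exit, was at 8.81 and 8.78 against 7.83, 7.88 and 8.13 (log2 difference 0.85 ± 0.10, adjusted p = 0.0213). Birc5, or survivin, was at 7.31 and 7.34 against 6.18, 6.35 and 6.66 (log2 difference 0.93 ± 0.14, adjusted p = 0.0459). Ccna2, the cyclin of S phase and G2, was at 9.46 and 9.45 against 8.40, 8.50 and 8.82 (adjusted p = 0.0395). In each of them the highest control pool was that of day 14.

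Mki67, the proliferation marker, was at 9.56 and 9.37 against 8.73, 8.66 and 8.93 (1.61-fold, adjusted p = 0.0401). Aurora kinases Aurka and Aurkb rose by 0.72 and 0.56, the kinesins Kif20a, Kif4 and Kif11 by 0.79, 0.69 and 0.67, and the ubiquitin ligase parts of mitotic exit Ube2c and Cdc20 by 0.71 and 0.49. The 12 that were not called had values of the same size, for example 0.88 for the checkpoint kinase Bub1 (adjusted p = 0.0583) and 0.56 for Cdk1 (adjusted p = 0.0855). With the day as a block 5 of the 29 were called, and with all 5 control pools all 29. Leaving out a pool left 3 called genes without the heme pool of day 7 and none without any other pool. In RNA of bulk scrapings, more cells of a kind and more RNA per cell cannot be told apart.

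Promoters of mitotic genes are known for the cell cycle homology region, a short element through which they are repressed early in the cell cycle. It was searched as TTTGAA on both strands and is shown in capitals because the mitosis genes measured were all higher in both heme pools. In Mki67 the 250 bases before the start (chr7:135716380-135716629, - strand) hold it 116 and 98 bases before the start.
Mki67: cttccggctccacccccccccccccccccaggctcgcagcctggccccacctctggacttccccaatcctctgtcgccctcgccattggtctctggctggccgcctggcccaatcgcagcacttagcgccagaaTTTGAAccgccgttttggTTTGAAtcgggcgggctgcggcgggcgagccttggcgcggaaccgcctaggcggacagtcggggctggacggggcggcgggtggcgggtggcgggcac
For 4 other members the match nearest the start is shown with 10 bases on each side: 15 bases before the start in Cdk1 (chr10:69352912-69352937, - strand), 18 in Cdc20 (chr4:118437346-118437371, - strand), 23 in Top2a (chr11:99024197-99024222, - strand) and 29 in Ube2c (chr2:164769890-164769915, + strand).
Cdk1: ccgcggcgagTTTGAAactgctggca
Cdc20: acagttgggtTTTGAAggagccaatg
Top2a: tagataaaggTTCAAAtgaaactagg
Ube2c: agggttgcaaTTCAAAcgcgggcggc
In Top2a and Ube2c the capitals read it on the opposite strand. It was found in 19 of 25 mitosis windows (76%), in 14.4% of the windows of tested genes, in 26.9% of those of called higher genes and in 15.3% of those of called lower genes. CCAAT, the box that often lies next to it, was found in 80% of mitosis windows and 41.4% of tested ones. The share was also 80% in the circadian clock list, 56.5% in Nrf2 targets and 52.4% in the fatty acid oxidation list, so it was not particular to mitosis. The letters TTTGAA are also part of a TCF/LEF motif, and a match was not tested as a site. The direct repeat AGGTCANAGGTCA, an ideal PPAR element, was in 7 windows of tested genes (0.0593%) and in none of 21 from the fatty acid oxidation list. A repeat this rare could hardly turn up in 21 windows, so its absence there says nothing about PPAR elements of these genes.

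Other cell cycle genes moved less than mitosis. In DNA replication 1 of 29 tested genes, the thymidine kinase Tk1, rose (0.48 ± 0.07, adjusted p = 0.0369), and the median difference was 0.18. Pcna, the sliding clamp, was at 9.89 and 10.02 against 9.76, 9.77 and 9.88 (adjusted p = 0.236). No gene was called among 18 G1 cyclins and CDK inhibitors, and the G1 cyclin Ccnd1 lay inside its control range at 8.86 and 8.91 against 8.82, 8.69 and 9.11. Among 18 genes of crypt stem cells and Wnt signalling none was called (median difference -0.10). None lay above the control range in both heme pools and 10 lay below it, against 15.5% and 21.7% of all genes tested. Lgr5, the receptor that marks crypt base stem cells, was at 6.95 and 6.97 against 7.10, 7.10 and 7.09 (adjusted p = 0.209).

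**Figure D3:**
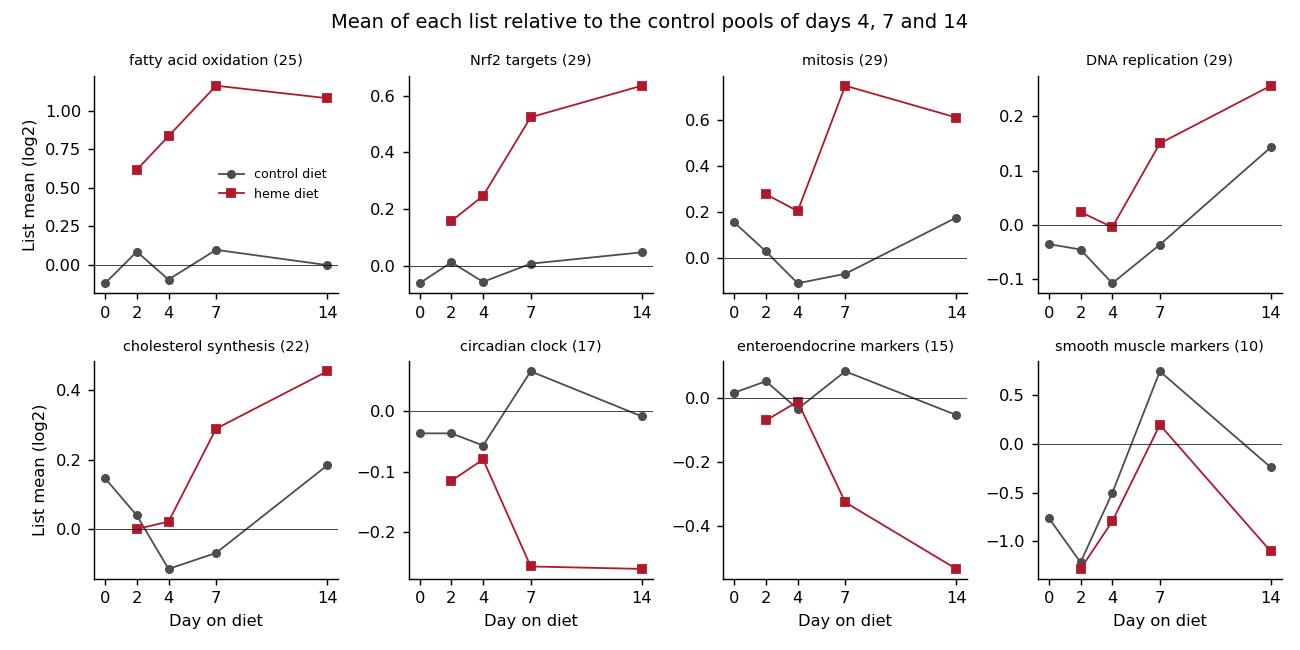
Mean over the tested members of 8 lists (y axis, log2, relative to the control pools of days 4, 7 and 14) in each pool by day on diet (x axis), with 1 array per point. In the heme pools the mitosis mean is 0.28, 0.20, 0.75 and 0.61 on days 2, 4, 7 and 14, while that of fatty acid oxidation is already 0.62 on day 2; smooth muscle markers vary as widely between control pools as between diets.

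Of 10 tested genes listed as surface growth inhibitors, 2 fell and none rose. Their effect on crypt division was not tested. Bmp2, a ligand made by differentiated colonocytes, was at 8.09 and 7.98 against 8.65, 8.75 and 8.65 (1.57-fold lower, adjusted p = 0.014). Il15, an epithelial cytokine that keeps intraepithelial lymphocytes alive, was at 7.45 and 7.03 against 8.10, 8.21 and 8.13 (1.88-fold lower, adjusted p = 0.0383). Wif1, a secreted Wnt inhibitor, was below the control range by 0.04 with an adjusted p of 0.262, and Ihh, the hedgehog ligand of the surface, had an adjusted p of 0.24. Il33, an alarmin cytokine, was at 5.10 and 4.94 against 5.23, 5.32 and 5.42 (adjusted p = 0.162).

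No gene was called among 12 EGF receptor ligands and receptors. Ereg, which encodes epiregulin, was at 6.18 and 6.07 against 5.98, 5.99 and 5.98, with an adjusted p of 0.305. Genes of injury and repair gave 1 higher and 1 lower gene of 18. The larger differences among them missed the threshold: Sprr1a, a cornified envelope gene, was at 9.22 and 9.84 against 7.68, 8.18 and 8.32 (adjusted p = 0.0547), and the urokinase receptor Plaur had a difference of 0.81 (adjusted p = 0.0888). None of 22 cell death regulators and none of 16 NF-kB cytokine and feedback genes was called. Il1b was at 5.39 and 5.33 against 4.99, 4.99 and 4.98 (adjusted p = 0.0575).

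Absorptive transport moved in both directions. Slc13a1, the sodium sulfate cotransporter, was at 8.29 and 7.70 against 9.92, 10.04 and 10.01 (3.98-fold lower, adjusted p = 0.013). Slc30a10, a manganese exporter, was at 6.97 and 7.01 against 8.87, 9.08 and 8.76 (3.77-fold lower, adjusted p = 0.00766). Slc10a2, the apical bile acid importer, was at 9.55 and 9.24 against 10.65, 10.49 and 10.52 (2.24-fold lower, adjusted p = 0.013). Control pools of these genes lay within 0.4 of each other, and both heme pools lay far below them.

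Among 21 genes of short-chain fatty acid and nutrient transport 2 rose and 5 fell, Slc13a1 among the latter. Slc5a8, the sodium-coupled importer of short-chain fatty acids, fell by 0.59, the sodium glucose cotransporter Slc5a1 by 0.51, the zinc importer Slc39a4 by 0.33 and the amino acid transporter Slc6a14 by 0.30. Slc3a1, a subunit of the cystine and basic amino acid transporter, rose by 0.73 (adjusted p = 0.0212), and the carnitine importer Slc22a5 rose by 0.62 (adjusted p = 0.0133). Cubn, the endocytic receptor of vitamin B12 bound to intrinsic factor, fell by 1.15, and Abcg5, a subunit of the sterol exporter, fell by 0.98. Among genes of water and electrolyte absorption 2 of 26 rose and 4 fell. The water channels rose: Aqp3 was at 6.66 and 7.25 against 5.60, 5.70 and 5.53 (adjusted p = 0.0345), and Aqp8 at 12.36 and 12.43 against 11.42, 11.54 and 11.57 (adjusted p = 0.00766). The phosphate transporter Slc20a1 fell by 0.58, the proton potassium pump subunit Atp12a by 0.55, the bicarbonate cotransporter Slc4a4 by 0.54 and the channel Best2 by 0.51. Slc26a3, the main chloride bicarbonate exchanger of the colon surface, was at 11.92 and 11.88 against 11.95, 11.94 and 11.99 (adjusted p = 0.353).

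Enzymes and carriers known from the small intestine also split. Sis, the sucrase-isomaltase, was at 5.48 and 5.04 against 7.13, 7.39 and 6.92 (3.68-fold lower, adjusted p = 0.0169), and the brush border protease Mep1a fell by 0.72. Alpi, the intestinal alkaline phosphatase, was at 9.18 and 9.44 against 8.07, 8.14 and 8.09 (log2 difference 1.21 ± 0.08, adjusted p = 0.00848). Mttp, which loads lipid onto lipoproteins, rose by 0.70. In tight junctions, Cldn8 fell by 0.56 and was the only called gene of 18 (adjusted p = 0.0265, or 0.0675 with the day as a block).

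**Figure D4:**
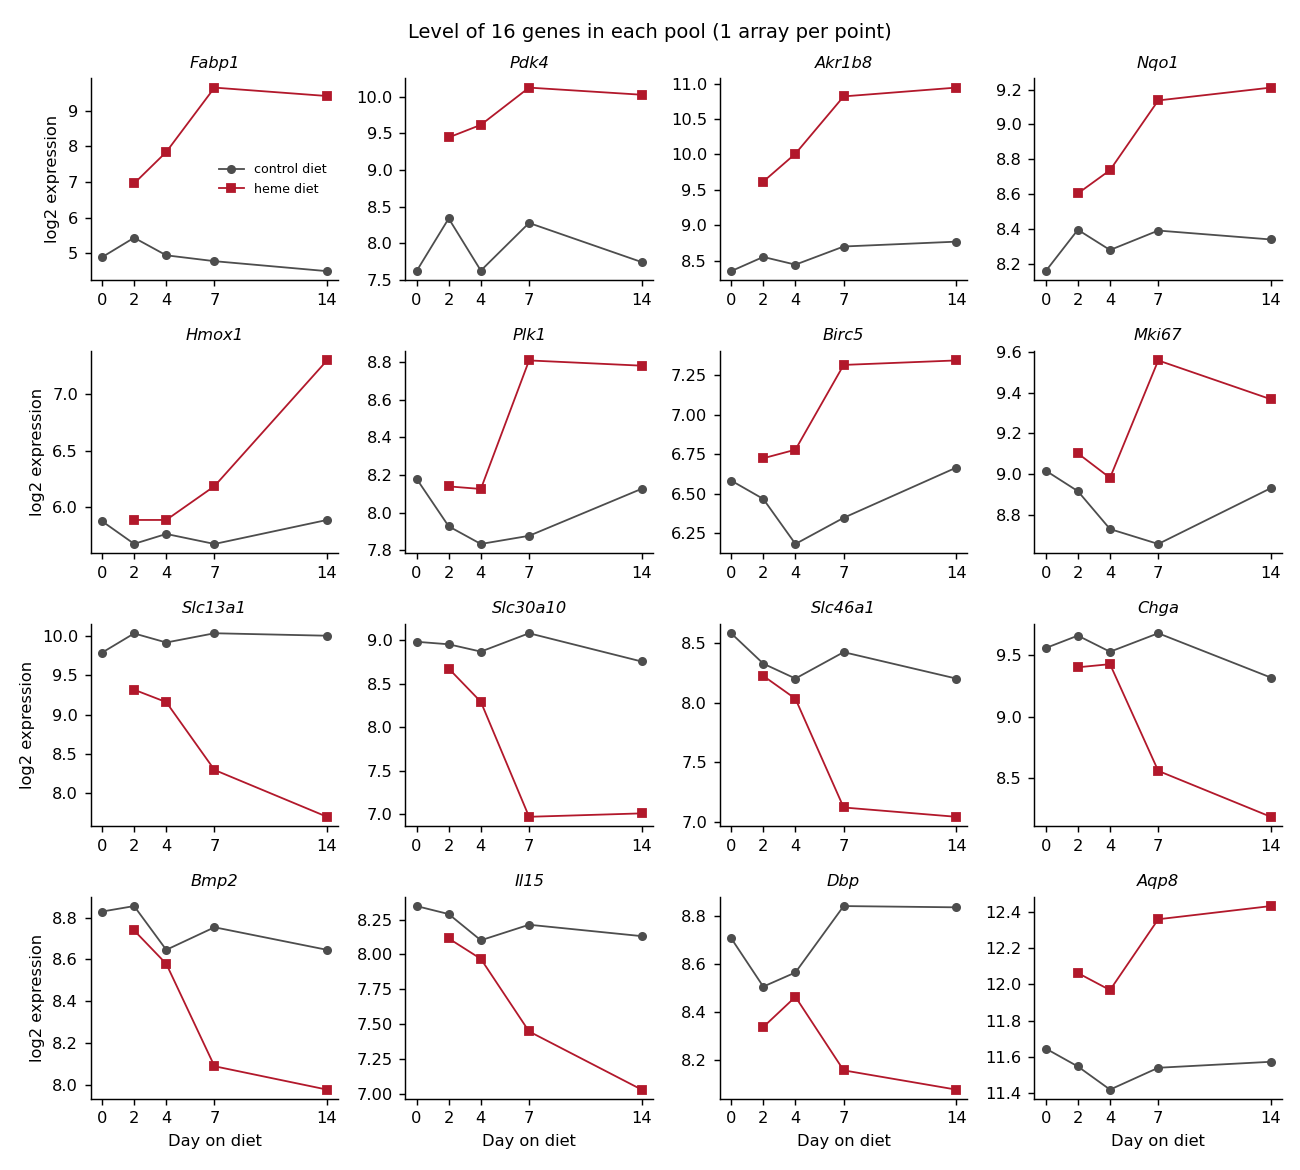
Level (y axis, log2) of 16 genes by day on diet (x axis) in the control pools (grey circles) and heme pools (red squares), with 1 array per point, a separate y range per panel that does not start at 0, and no error bar because each diet and day has 1 pool. Fabp1 and Akr1b8 are above the control pools from day 2. Heme pools of Plk1, Slc46a1, Bmp2 and Chga differ more from the same-day control pools at days 7 and 14 than on earlier days. Slc46a1 (8.03) and Bmp2 (8.58) are already below their lowest control pools (8.20 and 8.65) in the last heme pool before day 7. Hmox1 is highest at day 14.

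Most enteroendocrine genes measured were below the control pools in both late heme pools. Chga, the granule protein of these cells, was at 8.56 and 8.19 against 9.52, 9.67 and 9.32 (2.19-fold lower, adjusted p = 0.0322) and was the only called gene of 15. Both heme pools lay below the control range for 9 of the 15 (median difference -0.27), against 21.7% of all genes tested. Tph1, which makes serotonin, was at 7.66 and 6.84 against 8.33, 8.63 and 8.17 (adjusted p = 0.097), and Chgb had a difference of -0.81 (adjusted p = 0.062). The summed linear signal of the 15 markers was 3980 and 3850 in the heme pools and 5040 to 5280 in the control pools. Sstr1, a somatostatin receptor, was at 6.73 and 6.55 against 7.78, 7.75 and 7.91 (2.25-fold lower, adjusted p = 0.00851).

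None of 12 goblet, 11 tuft, 11 macrophage, 12 fibroblast or 10 B and plasma cell markers was called. Of all genes tested 1.42% were called higher and 1.15% lower. Both heme pools lay below the control range for 5 goblet, 5 tuft, 3 fibroblast and 1 of the B and plasma cell markers, against 21.7% of all genes tested. They lay above it for 1 goblet and 2 tuft markers, against 15.5%. Among 14 colonocyte markers the called gene was Aqp8. Colonocyte markers summed to 54100 and 52900 in the heme pools and 51200 to 52300 in the control pools, and goblet markers to 36800 and 34300 against 37000 to 39300. Tuft cell markers summed to 812 and 766 in the heme pools and 917 to 934 in the control pools. Cela1 of the pancreatic acinar list fell by 0.78 and Cidec of the adipocyte list rose by 0.92; the part of any change in cell makeup in the results above was not tested.

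Of 17 tested clock genes 4 fell and none rose (median difference -0.20). In both heme pools 11 lay below the control range, against 21.7% of all genes tested. Dbp, a clock output factor, was at 8.16 and 8.08 against 8.56, 8.84 and 8.84 (adjusted p = 0.0456). Per3, a period repressor, was at 6.76 and 6.81 against 7.30, 7.42 and 7.37 (adjusted p = 0.0188). Per2 fell by 0.43 and the nuclear receptor Nr1d1 by 0.39. With the day as a block Dbp alone of these stayed called, and the adjusted p was 0.0613 for Per3, 0.12 for Per2 and 0.0528 for Nr1d1. The repressors Cry1 and Per1 were not called, with differences of 0.06 and -0.16. Arntl, the activator that opposes them, had a difference of 0.04 (adjusted p = 0.74). No label states at which hour tissue was collected, so the hour and the diet cannot be told apart.

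Genes of cholesterol synthesis and lipogenesis lay above the control range in 15 of 22, against 15.5% of all genes tested. They include genes of fatty acid synthesis such as Fasn. The 1 called gene was Nsdhl of the sterol ring pathway (0.55, adjusted p = 0.0465). The list's control pools differed, at -0.12, -0.07 and 0.18 (log2, relative to their mean). Respiratory chain subunits lay above the control range in 18 of 22, against the same 15.5%, with small differences (median 0.15). Ndufa4 and Cyc1 rose by 0.36 and 0.25. Among 16 genes of xenobiotic metabolism 6 rose and 2 fell. Aldh1a1, the retinal dehydrogenase, rose by 0.81, the carboxylesterase Ces1g by 0.58 and Cyp2c65 by 0.39, whereas the sulfotransferase Sult1a1 fell by 0.81. No gene of 25 in ribosome biogenesis and none of 7 in MHC class II was called. Among 18 interferon response genes Psmb8, an immunoproteasome subunit, was called, and it fell by 0.68. Both heme pools lay below the control range for 9 of the 18 and above it for none (median difference -0.165). Over all genes tested the shares were 21.7% and 15.5%.

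Further genes with large differences are named apart from these groups. Capg, an actin filament capping protein, was at 8.93 and 9.36 against 7.22, 7.46 and 7.67 (3.24-fold higher, adjusted p = 0.0192). Ly6m, of the Ly6 family, was at 9.28 and 9.51 against 7.39, 7.85 and 8.13 (3.04-fold higher, adjusted p = 0.0369). Akr1c18, a steroid-reducing aldo-keto reductase, rose 3.5-fold (adjusted p = 0.0194). Clca4b, a member of the CLCA family named after its values were seen, was at 9.13 and 10.28 against 6.97, 7.36 and 8.10 and missed the threshold (adjusted p = 0.0731). On the lower side, Saa3, an acute phase protein, was at 7.24 and 6.93 against 8.18, 8.38 and 8.36 (2.33-fold lower, adjusted p = 0.014).

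Cyp2f2, a cytochrome P450 best known from airway club cells, was at 7.07 and 6.93 against 8.11, 8.15 and 8.15 (2.2-fold lower, adjusted p = 0.00766). Sycn, a secretory granule protein, fell by 1.07, the cholinesterase Bche by 1.02, the peptide ligand Edn1 by 0.99 and the unnamed transcript 2210407C18Rik by 1.26. With the day as a block, 29 of the 30 stayed called, and Edn1 had an adjusted p of 0.0505. All 30 were called with all 5 control pools.

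Between the late pools, day 14 was the further from the control mean for 117 of the 212 higher genes and 133 of the 172 lower ones. The median difference of the higher genes was 0.58 on day 7 and 0.57 on day 14. That of the lower genes was -0.40 on day 7 and -0.48 on day 14. Over all genes tested, differences from the control mean also spread wider in the pool of day 14 (SD 0.287) than in that of day 7 (SD 0.182). How many of all genes tested were further on day 14 was not counted. Both pools were used to call these genes, so the values are a description.

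To ask which differences were late, the heme minus control difference of days 7 and 14 was set against that of days 2 and 4 (8 arrays, same-day control pools). No gene was called by limma (0% of 14953), with 994 at an unadjusted p under 0.05 and a smallest adjusted p of 0.294. The late arrays are shared with the comparison above. Slc46a1 had same-day differences of -0.10, -0.17, -1.31 and -1.16 on days 2, 4, 7 and 14. Slc30a10 had -0.28, -0.58, -2.11 and -1.75, and Chga had -0.26, -0.10, -1.11 and -1.13. In these genes both late differences were larger than both early ones.

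Fabp1 differed by 1.52, 2.90, 4.87 and 4.92 on the same days, and Pdk4 by 1.11, 1.99, 1.85 and 2.28, so both were already high on day 2. Plk1 differed by 0.21, 0.29, 0.93 and 0.65, and Mki67 by 0.19, 0.25, 0.90 and 0.44. Bmp2 differed by -0.12, -0.07, -0.66 and -0.67. Hmox1 differed by 0.21, 0.12, 0.51 and 1.41. The late minus early contrast had an adjusted p of 0.294 or more for all 9 of these genes, so an onset between days 4 and 7 was not resolved by this test.

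**Figure D5:**
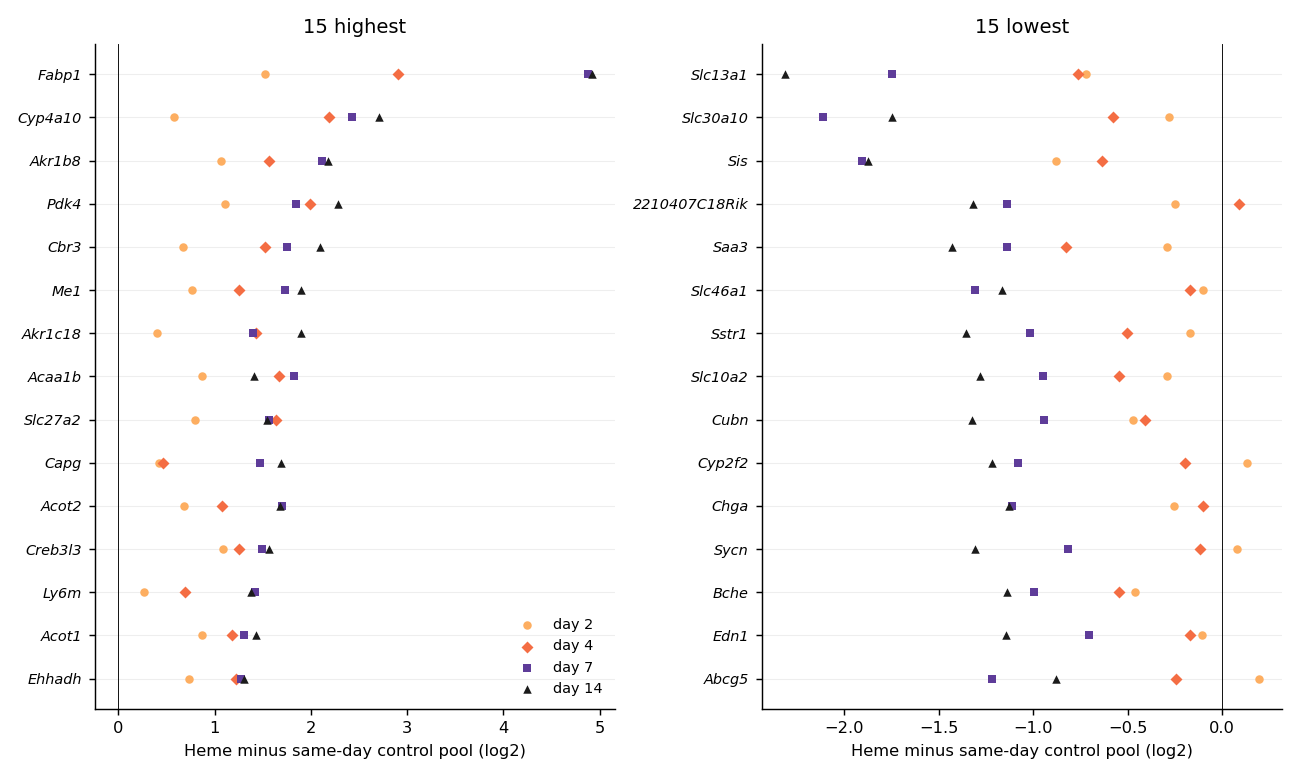
Heme pool minus control pool of the same day (x axis, log2) for the 15 highest and 15 lowest called genes (rows), with 1 symbol per day and no error bar because each is a difference of 2 arrays. Fabp1 moves from 1.52 on day 2 to 4.92 on day 14, and the symbols of days 7 and 14 of Slc46a1, Cyp2f2 and Chga lie apart from those of days 2 and 4, which are near 0.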

How the data were processed

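RNA pools from colon scrapings were hybridised to Affymetrix whole-transcript arrays, 1 array per pool. Per the submitters' processing notes the authors used RMA (version not given in the sources used here), and the deposited values are log2 intensities; probe signal was the only depth, and 5 arrays limit the precision. Of 35556 probesets, 21789 have 1 gene symbol, 1621 several and 12146 none; only the first were named, and 21698 matched RefSeq by Entrez ID. For 999 genes with several probesets the one with the highest mean was kept. Genes with a mean at or above the 25th percentile (4.729) were tested, 14953 of 19938, with limma 3.58.1 (lmFit and eBayes with an intensity trend, R 4.3.3, 3 residual df) and Benjamini-Hochberg adjustment. The code was tested on simulated data. Equal values occurred in at least 2 control pools for 2483 genes and in all 3 for 304.

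An exact permutation test of 2 against 3 arrays cannot go below p = 0.1, so lists are given as counts and medians. Late minus early used 8 arrays with 4 residual df. Genes were named by a fixed rule: the 15 highest and 15 lowest called genes, up to 6 members per list beyond the control range with the largest difference, and 23 key genes, of which 20 were tested; other list members are named to complete counts and were chosen after their values were seen. The members and lists were chosen with earlier results of these data known. Alternatives were the filter, probeset mean, centring, trend, other control pools, a day block and leaving out each pool. Motifs were searched in 32851 RefSeq windows of 300 bases, with Python 3.11.15.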

Additional observations from a re-analysis of the deposited data

How the results depend on the processing

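Both heme pools of all 384 called genes lay beyond the control range, so leaving out a pool could not turn their direction. The count of called genes was 185 (111 higher, 74 lower) with no filter on dim genes, 133 (85 and 48) without the intensity trend, 1222 (524 and 698) over all 9 arrays in 4 groups and 1638 (647 and 991) with all 5 control pools. It was 569 with the filter at the median, where 299 were lower, 383 with probesets averaged and 549 with each array centred on its median. Of the 384, 374 were called in the 9-array fit. Leaving out each pool in turn gave 0 to 2190 called genes, 0 to 783 of them higher and 0 to 1407 lower; with 1 heme pool left, that pool was assumed to vary like the control pools. With the day as a replicate block, on 2 pairs of days, 178 were called (92 higher, 86 lower), of which 141 were shared. Calls of genes named in the text that the block ended were those of Acox2, Plin2, Gclm, Gsr, Pgd, Srxn1, Taldo1, Txnrd1, Slc11a2, Birc5, Mki67, Aurkb, Cdc20, Ube2c, Kif4, Kif11, Top2a, Tk1, Aqp3, Atp12a, Best2, Slc39a4, Slc6a14, Mttp, Cldn8, Per2, Per3, Nr1d1, Cidec, Cyc1, Ndufa4, Edn1, Pgk1, Psat1, Dnajb9, Max and Pdxk. Over genes, the difference of day 7 minus day 14 in the heme pools correlated at 0.076 with that in the control pools. A shared day joins different mice, and the days were not taken as pairs in the main test. An effect shared by pools of the same day was not tested.

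Genes beyond the control range numbered 6576 to 11169 when a pool was left out, against 5568. Those with a gap of at least 0.5 numbered 155 to 583, and a gap of 0.25 gave 560 and a gap of 1 gave 25, against 139. The late minus early contrast called 0 genes in each setting tried. The causes of these shifts were not tested; with fewer pools, fewer values have to lie beyond the range. Signals near background compress differences, so values of Fabp1 and Cyp4a10, dim in the control pools, are less certain.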

Other observations

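Among 18 antimicrobial and acute phase genes, Saa3 was called (fell by 1.22). Saa1 was at 10.42 and 9.99 in the heme pools of days 7 and 14 and at 10.92, 10.95 and 10.91 in the control pools of days 4, 7 and 14, with an adjusted p of 0.0518 in limma's test. Pla2g2a, a secreted phospholipase, was at 6.05 and 6.52 against 5.49, 5.42 and 5.60 (adjusted p = 0.0648).

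In glycolysis 1 of 16 genes was called: Pgk1 was at 11.73 and 11.93 against 11.41, 11.43 and 11.42 (adjusted p = 0.0422). Among 23 genes of ER stress and ATF4, Psat1, an enzyme of serine synthesis, rose by 0.51 (adjusted p = 0.0389) and the chaperone gene Dnajb9 fell by 0.30 (adjusted p = 0.0287); the latter call was lost over all 9 arrays (0.0707) and with the day as a block (0.114), and that of Psat1 with the block (0.0988). Among 11 T and NK cell markers none was called, and 5 lay below the control range in both heme pools. Over all genes tested 21.7% lay below it. The differences of these 5 ran from -0.39 for Gzma to -0.09 for Cd8a.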
